A study of Homo sapiens with 12 samples.

Results

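Fatty acid synthesis and lipid droplet genes were followed across 2 human hepatocellular carcinoma lines in 3 cultures. The set holds 34 genes, chosen by name from the 58735 genes of the deposited tables, and all 34 names were found. Of the 34, 31 had enough reads to be tested, among 19342 genes tested in all. The 3 that were not tested are THRSP, a lipogenic regulator of liver and fat, with 8 counts over all libraries, and the droplet fusion proteins CIDEB and CIDEC, with 14 and 4. CIDEB exons overlap LTB4R2 and NOP9 over 100% of their length. The strand setting of the counting is not given, so the CIDEB count may be too low.

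Liver cells build fatty acids in the cytosol from acetyl-CoA, which ACLY and ACSS2 supply. Acetyl-CoA carboxylase and fatty acid synthase make the saturated chain, which desaturases and elongases then modify. Acyl-CoA synthetases activate the chains, a series of acyltransferases joins them to glycerol, and the triglyceride is stored in droplets coated by perilipins and mobilised by lipases. SREBF1 and MLXIPL encode the transcription factors SREBP-1 and ChREBP, which respond to insulin and sterols and to glucose and switch on many of these enzymes.

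Poly-A RNA was sequenced from wild-type Huh7 and HLF cells, both grown in DMEM with 10% fetal bovine serum, with 2 biological replicates in each of 6 groups. Each line was grown flat (2D), as cells injected into the centre of a set Matrigel (Inject-Embed), or as cells mixed into Matrigel and layered on a gel (Mix-Embed). The 2D cells were harvested after 2 days and the Matrigel cells after 6 to 8 days. Inject-Embed wells received 4000 Huh7 or 2000 HLF cells and Mix-Embed wells 20000 or 10000, so culture, seeding and days in culture cannot be told apart. Each line is a single line with no normal hepatocyte beside it, and the labels do not say whether replicates came from separate cultures, so p-values measure the spread between these libraries.

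The 12 libraries held 12325877 to 16041906 counts, and a gene with 3 counts stood at 0.178 to 0.255 CPM (counts scaled to library size, with TMM factors). Replicates differed by more than counting noise in all 6 groups, with a chi-square per degree of freedom of 2.15 to 3.84, highest in Huh7 2D. Hepatocyte markers summed to 37399 to 48707 CPM in Huh7 and 32.4 to 169 CPM in HLF, where ALB, APOA1, APOB, TTR, TF and HNF4A were at 3 counts or fewer per group. Mesenchymal markers summed to 147 to 227 CPM in Huh7 and 3327 to 3927 CPM in HLF. Adipocyte markers, which would carry their own droplet programme, summed to at most 1.04 CPM in any library.

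In Huh7, the set was mostly lower in Inject-Embed than in 2D and less uniformly changed in Mix-Embed. With edgeR and an adjusted p under 0.05, 20 of 31 tested members fell and 3 rose in Huh7 Inject-Embed against 2D, where 16.7% of all tested genes fell and 13.2% rose. In Huh7 Mix-Embed against 2D, 12 fell and 7 rose, against 10.6% and 11.2% of all genes. The median log2 fold change of the tested members was -0.39 in Inject-Embed and -0.14 in Mix-Embed, while that of all tested genes was -0.01 and 0.0. Both comparisons use the same 2D libraries. Between the Matrigel cultures, 21 members were lower and 2 higher in Inject-Embed than in Mix-Embed, with 13.4% and 9.55% of all genes. Fitted on the 6 Huh7 libraries alone, that split was 20 lower and 5 higher. The summed hepatocyte markers were lower in the same libraries, at 37399 to 38814 CPM in Inject-Embed against 46725 to 48707 in 2D and 45777 to 46396 in Mix-Embed, and their part in these results was not tested. Of these calls, 20 of 23, 13 of 19 and 17 of 23 held under each alternative run.

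In HLF, calls against 2D went both ways in Inject-Embed and were mostly lower in Mix-Embed. In Inject-Embed 7 members fell and 5 rose, against 8.86% and 9.09% of all genes, and with library totals in place of TMM the split was 6 and 7. In Mix-Embed 12 fell and 5 rose, against 14.6% and 14.4%. The medians of the tested members were 0.0 and -0.17, beside 0.0 for all genes in both. Summed hepatocyte markers in the same HLF libraries were 167 to 169 CPM in 2D, 32.4 to 35.9 in Inject-Embed and 54.2 to 60.6 in Mix-Embed. Those sums rest on few genes: 3 of the 10 listed had over 3 counts in 2D and in Inject-Embed, and 4 in Mix-Embed. Summed mesenchymal markers were 3327 to 3328, 3913 to 3927 and 3504 to 3589 CPM, and the part of either list in these results was not tested. Inject-Embed and Mix-Embed differed in 8 members, 6 higher and 2 lower in Inject-Embed, where 3.56% and 4.71% of all genes were called. That count is the least firm: it was 3 without HLF Inject-Embed replicate 2, and 2 of its 8 calls held under each alternative.

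**Figure D1:**
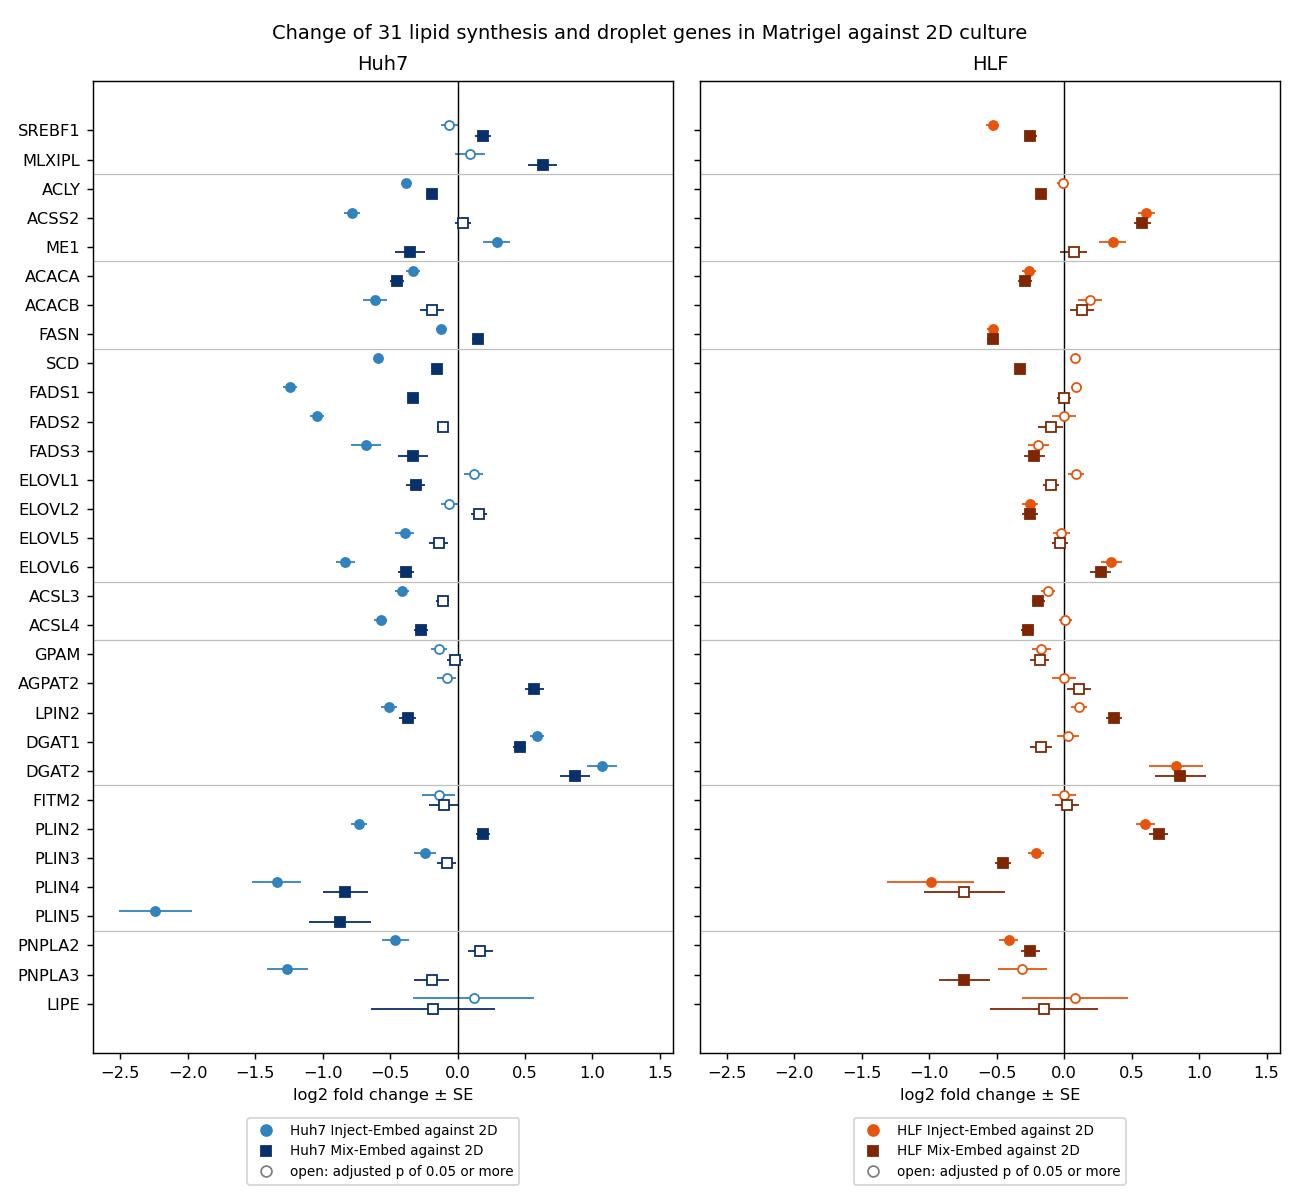
Log2 fold change ± SE (x axis) of the 31 tested members (y axis, grouped by role) in Inject-Embed (circles) and Mix-Embed (squares) against 2D, for Huh7 (left) and HLF (right). Filled symbols have an adjusted p under 0.05; most filled Huh7 circles lie left of 0, and DGAT2 lies right of 0 in all 4 comparisons. MLXIPL and PLIN5 are not drawn for HLF, where they have 3 counts or fewer.

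Together the 34 genes took 1.13% of all counts in both Huh7 2D libraries, 0.853% and 0.834% in Huh7 Inject-Embed, and 1.07% in both Huh7 Mix-Embed libraries. In HLF they took 0.718% and 0.734% in 2D, 0.68% and 0.686% in Inject-Embed, and 0.628% and 0.636% in Mix-Embed. Each Huh7 library was above each HLF library, and the 2D libraries were the highest of each line. In bulk RNA a lower level per cell and fewer cells with the transcript cannot be told apart.

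The lines differed in most members already in 2D. Huh7 was higher in 19 and lower in 10 of 31, where 38.1% and 39.2% of all genes were called. Most genes of any kind were thus called in a contrast this broad. Among the called members more were higher in Huh7. All 5 triglyceride assembly genes, both acyl-CoA synthetases, PLIN2, PLIN4, PLIN5 and MLXIPL were higher in Huh7. SREBF1, ACLY, FADS3, ELOVL1, ELOVL5, FITM2, PLIN3 and PNPLA2 were higher in HLF, and ME1 and LIPE did not pass the test. The calls of ACACA and ELOVL2, also higher in HLF, ended under DESeq2 (adjusted p = 0.051 and 0.0718). They also ended without Huh7 2D replicate 2 (log2 fold change -0.06 and -0.15). The ACACA call further ended in edgeR on the 4 compared libraries alone (adjusted p = 0.0586), and that of ELOVL2 without HLF 2D replicate 1 (-0.13). Without TMM, the median over all tested genes in this comparison was -0.18 in place of -0.02.

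**Figure D2:**
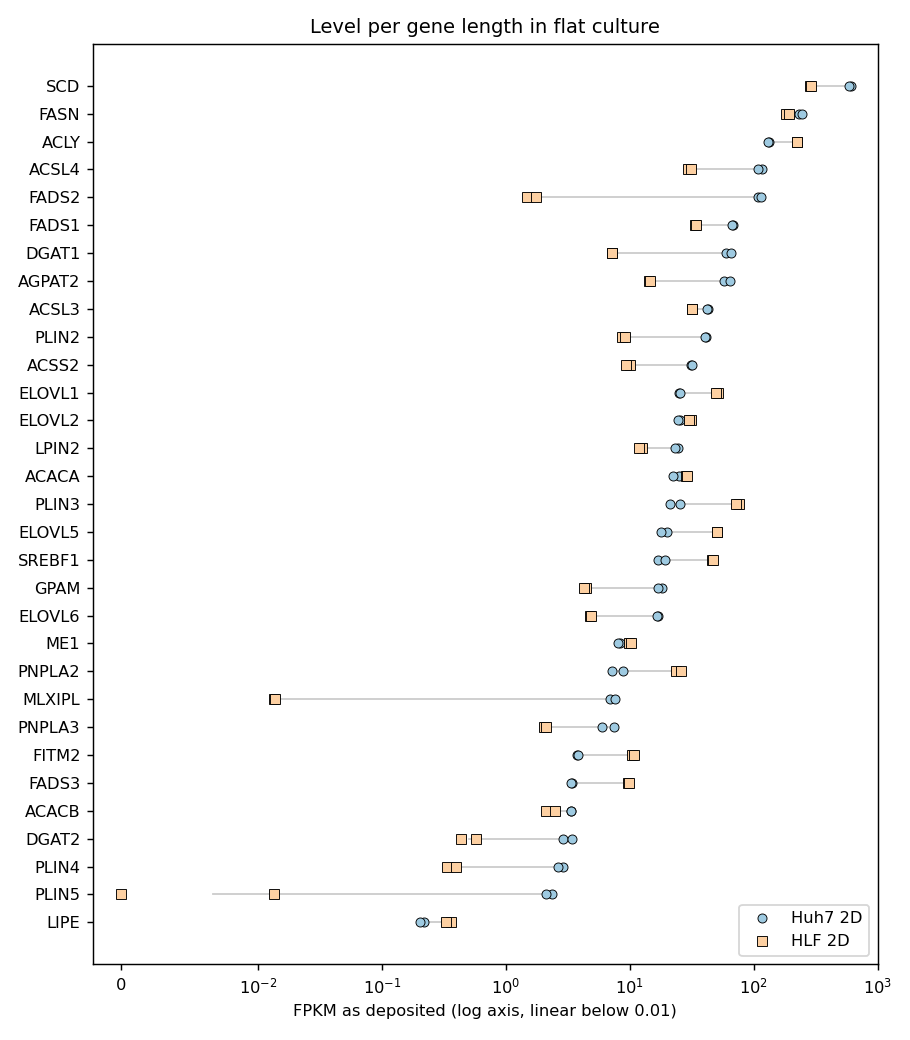
Deposited FPKM (x axis, log scale, linear below 0.01) of the 31 tested members in 2D, ordered by the Huh7 level, with each library as a point (circles Huh7, squares HLF) and a line joining the group means. SCD is the highest in both lines, and MLXIPL, PLIN5 and FADS2 show the widest gaps.

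Per gene length, SCD was the highest member in all 6 groups, at a mean of 596 FPKM in Huh7 2D and 287 FPKM in HLF 2D. FASN (238 FPKM) and ACLY (131 FPKM) followed in Huh7 2D, and ACLY (224 FPKM) and FASN (189 FPKM) in HLF 2D. LIPE was the lowest tested member in Huh7 2D, at 0.21 FPKM.

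Of the regulators, SREBF1 was the more abundant in HLF and MLXIPL was all but undetected in HLF. SREBF1 measured 146 and 168 CPM in Huh7 2D, 156 and 146 in Inject-Embed, and 177 and 181 in Mix-Embed. In HLF it measured 356 and 363 CPM in 2D, 246 and 250 in Inject-Embed, and 286 and 318 in Mix-Embed. HLF was higher throughout and fell from 2D in both Matrigel cultures without overlap, while the Huh7 2D and Inject-Embed libraries overlapped. SREBF1 changed by -0.53 ± 0.05 (log2 fold change ± SE, adjusted p = 1.38e-10) in HLF Inject-Embed and by -0.06 ± 0.06 (adjusted p = 0.524) in Huh7 Inject-Embed. The line difference was 0.48 ± 0.08 (adjusted p = 7.13e-06). In Mix-Embed the changes were -0.25 ± 0.05 in HLF (adjusted p = 0.000255; 0.0586 without HLF Mix-Embed replicate 1) and 0.19 ± 0.06 in Huh7. The Huh7 call (adjusted p = 0.0144) ended without Huh7 2D replicate 1 or Mix-Embed replicate 2 (adjusted p = 0.393 and 0.129). SREBF1 exons overlap RAI1 over 6.75% of their length, and the strand setting of the counting is not given in the sources used here.

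MLXIPL measured 35.5 and 39.2 CPM in Huh7 2D, 41.8 and 37.5 in Inject-Embed, and 58.4 and 57.0 in Mix-Embed. Both Mix-Embed libraries stood above the other 4. Its change against 2D was 0.63 ± 0.11 in Mix-Embed (adjusted p = 1.26e-05) and 0.09 ± 0.11 in Inject-Embed (adjusted p = 0.621). In HLF it had 2, 1 and 2 counts over both libraries in 2D, Inject-Embed and Mix-Embed, too few for a fold change within the line. The ratio of Huh7 to HLF in 2D was 598, with a 95% counting interval of 165 to 4942 that covers counting error only.

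Of the 3 supply genes, ACSS2 went in opposite directions in the lines in Inject-Embed. This enzyme, which makes acetyl-CoA from acetate, measured 179 and 186 CPM in Huh7 2D, 105 and 108 in Inject-Embed, and 185 and 189 in Mix-Embed. The HLF values were 51.8 and 48.3 CPM in 2D, 74.4 and 78.3 in Inject-Embed, and 74.7 and 75.4 in Mix-Embed. It thus fell in Huh7 Inject-Embed (-0.78 ± 0.06, adjusted p = 1.13e-14) and rose in both HLF Matrigel cultures (0.61 ± 0.06 and 0.58 ± 0.06, adjusted p = 5.54e-10 and 8.01e-10). The Huh7 Mix-Embed value was 0.04 ± 0.06 (adjusted p = 0.717). ACLY, which cleaves citrate to acetyl-CoA, was the larger of these genes and changed less. It measured 740 and 729 CPM in Huh7 2D, 569 and 564 in Inject-Embed and 644 and 647 in Mix-Embed. The change was -0.38 ± 0.04 in Inject-Embed (adjusted p = 1.22e-10) and -0.19 ± 0.04 in Mix-Embed (adjusted p = 0.000224). In HLF, ACLY changed by -0.17 ± 0.04 in Mix-Embed (adjusted p = 0.00034) and by -0.01 ± 0.04 in Inject-Embed (adjusted p = 0.918). ME1, the cytosolic malic enzyme that yields NADPH, lay between 22.2 and 43.1 CPM in all 12 libraries. It was higher in Inject-Embed than in Mix-Embed in Huh7 (0.64 ± 0.1, adjusted p = 5.97e-06).

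Among the chain synthesis genes, ACACA, the cytosolic acetyl-CoA carboxylase and the committed step, fell in all 4 Matrigel comparisons. It measured 344 and 315 CPM in Huh7 2D, 266 and 258 in Inject-Embed, and 249 and 235 in Mix-Embed. HLF libraries held 355 and 362 CPM in 2D, 300 and 298 in Inject-Embed, and 290 and 298 in Mix-Embed. Each Matrigel library was below each 2D library of its line. The changes were -0.33 ± 0.05 and -0.45 ± 0.05 in Huh7 (adjusted p = 5.86e-07 and 1.62e-09) and -0.26 ± 0.05 and -0.29 ± 0.05 in HLF (adjusted p = 4.47e-05 and 5.87e-06). The line differences of -0.07 ± 0.07 and -0.16 ± 0.07 missed the threshold (adjusted p = 0.554 and 0.103). ACACB, the mitochondrial carboxylase whose product restrains fatty acid oxidation, fell in Huh7 Inject-Embed (-0.61 ± 0.09, adjusted p = 6.83e-07) and measured 0.19 ± 0.09 in HLF (adjusted p = 0.152). ACACB made up 12.4% of the carboxylase FPKM in Huh7 2D and 7.39% in HLF 2D.

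FASN, the synthase itself, behaved differently in the lines. It measured 2312 and 2466 CPM in Huh7 2D, 2278 and 2107 in Inject-Embed, and 2658 and 2656 in Mix-Embed. Levels in HLF were 1656 and 1748 CPM in 2D, 1166 and 1188 in Inject-Embed, and 1156 and 1207 in Mix-Embed. In HLF the 2D libraries stood above all 4 Matrigel libraries, which overlapped each other, and FASN fell there by -0.53 ± 0.04 in both cultures (adjusted p = 1.19e-14 and 8.48e-15). In Huh7 the changes were small, -0.12 ± 0.04 in Inject-Embed (adjusted p = 0.0121) and 0.15 ± 0.04 in Mix-Embed (adjusted p = 0.00267). The first call ended under library totals (adjusted p = 0.0725), on the 6 Huh7 libraries alone (0.0761) and without 7 of the libraries in turn, for example 0.364 without Huh7 Inject-Embed replicate 2. The second ended without Huh7 2D replicate 1 (adjusted p = 0.0767). The lines differed in both cultures, by 0.41 ± 0.06 and 0.68 ± 0.06 (adjusted p = 1.2e-07 and 3.16e-13).

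**Figure D3:**
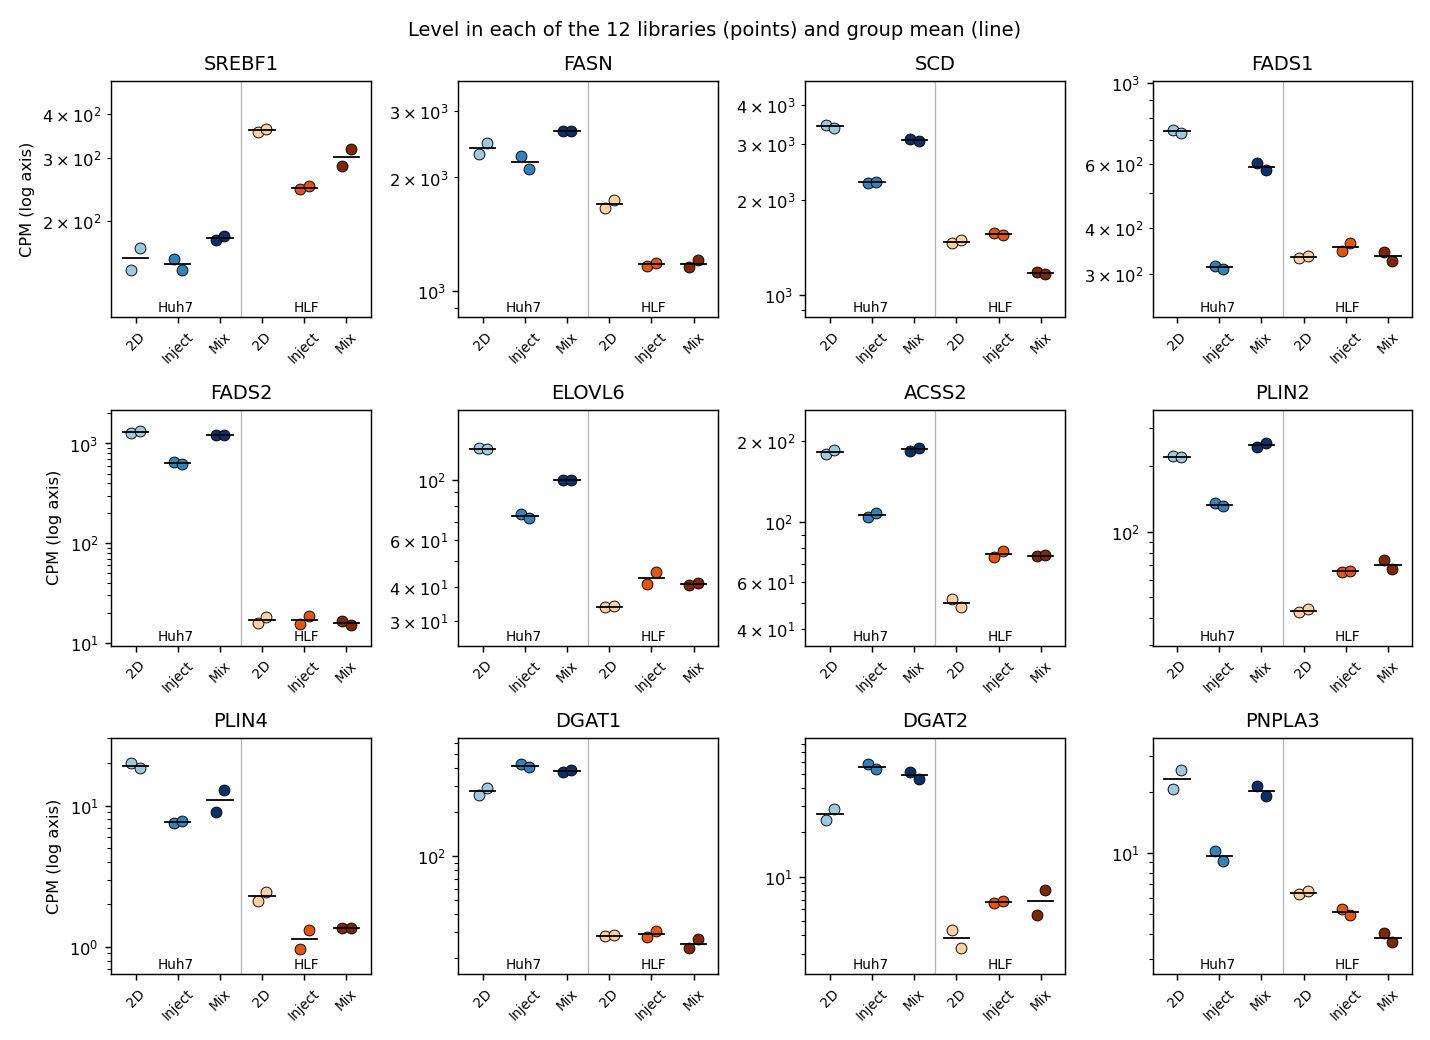
CPM (y axis, log scale, a separate range in each panel) of 12 members in each of the 12 libraries, with the group mean as a line, Huh7 on the left and HLF on the right of each panel. SCD, FADS1, FADS2, ELOVL6, ACSS2 and PLIN2 share a low Huh7 Inject-Embed point pair, and FASN and SREBF1 are instead highest in HLF 2D among the HLF groups.

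Of the 8 desaturases and elongases, 6 fell in Huh7 Inject-Embed and 5 in Huh7 Mix-Embed, where 16.7% and 10.6% of all genes fell, and none rose in either. In HLF 1 fell and 1 rose in Inject-Embed (8.86% and 9.09% of all genes), and 3 fell and 1 rose in Mix-Embed (14.6% and 14.4%). SCD (chr10:100347124-100364834, plus strand), the stearoyl-CoA desaturase that makes oleate, measured 3467 and 3387 CPM in Huh7 2D, 2270 and 2286 in Inject-Embed, and 3129 and 3069 in Mix-Embed. In HLF the gene stood at 1467 and 1493 CPM in 2D, 1575 and 1556 in Inject-Embed, and 1186 and 1172 in Mix-Embed. The low group was Inject-Embed in Huh7 and Mix-Embed in HLF. SCD changed by -0.59 ± 0.03 in Huh7 Inject-Embed (adjusted p = 1.59e-18) and by -0.15 ± 0.03 in Huh7 Mix-Embed (adjusted p = 0.000988). In HLF it changed by 0.08 ± 0.03 in Inject-Embed (adjusted p = 0.0933, under 0.05 with library totals) and by -0.33 ± 0.03 in Mix-Embed (adjusted p = 1.17e-10). Between the Matrigel cultures the lines went opposite ways, -0.44 ± 0.03 in Huh7 and 0.41 ± 0.03 in HLF, a line difference of -0.85 ± 0.05 (adjusted p = 6.24e-18).

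FADS1 and FADS2, the delta-5 and delta-6 desaturases of polyunsaturated fatty acids, and their relative FADS3 lie side by side on chromosome 11. FADS2 spans chr11:61792980-61867354 and the near edge of FADS3, on the minus strand, lies 6164 bases beyond it. FADS1 lies within the FADS2 span on the other strand. FADS1 measured 746 and 732 CPM in Huh7 2D, 316 and 310 in Inject-Embed, and 603 and 577 in Mix-Embed. FADS2 measured 1287 and 1348, then 650 and 629, then 1223 and 1223 CPM in the same groups. Both were lowest in Inject-Embed with no overlap, by -1.24 ± 0.05 and -1.04 ± 0.05 against 2D (adjusted p = 2.19e-25 and 1.47e-22). In Mix-Embed FADS1 changed by -0.33 ± 0.04 (adjusted p = 1.5e-07) and FADS2 by -0.11 ± 0.04 (adjusted p = 0.0805). In HLF, FADS1 stayed between 325 and 365 CPM, and FADS2 between 15.3 and 18.5 CPM, in all 6 libraries. Their HLF changes in Inject-Embed were 0.09 ± 0.04 and 0.0 ± 0.09 (adjusted p = 0.163 and 1). FADS2 was 77.2-fold higher in Huh7 than in HLF in 2D (log2 fold change 6.27 ± 0.06, adjusted p = 2.4e-48). FADS3 lay between 13.9 and 22.9 CPM in Huh7 and between 48.2 and 59.2 CPM in HLF, and changed by -0.68 ± 0.11 in Huh7 Inject-Embed (adjusted p = 4.66e-06). FADS1 shares 4.79% of its exon length with FADS2, and FADS2 shares 5.11% of its own with FADS1 and FEN1. Reads from these stretches could be misassigned or left out. FADS2 is low in HLF beside FADS1, so this could weigh most on its HLF level, its HLF share and the 77.2-fold ratio. The size of that effect was not tested.

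FADS2 held 61.2% ± 1.1 (SD, n = 2) of the FPKM of the FADS genes in Huh7 2D and 3.55% ± 0.34 in HLF 2D. FADS1 held 37% and 75%, and FADS3 1.85% and 21.4%. The shares moved little with culture: FADS2 stayed at 63.8% and 64.7% in the Huh7 Matrigel cultures and 3.47% and 3.42% in those of HLF.

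Of the elongases, ELOVL6, which extends palmitate to stearate, differed most. It measured 131 and 130 CPM in Huh7 2D, 74.6 and 72.2 in Inject-Embed, and 100 in both Mix-Embed libraries. For HLF the values were 33.8 and 34 CPM in 2D, 41.0 and 45.7 in Inject-Embed, and 40.6 and 41.3 in Mix-Embed. The groups of each line did not overlap with its 2D libraries, lower in Huh7 and higher in HLF. The changes were -0.83 ± 0.07 and -0.38 ± 0.06 in Huh7 (adjusted p = 7.97e-14 and 1.1e-05) and 0.35 ± 0.08 and 0.27 ± 0.08 in HLF (adjusted p = 0.000543 and 0.00539). ELOVL5, which extends polyunsaturated chains, fell in Huh7 Inject-Embed (-0.39 ± 0.07, adjusted p = 1.2e-05) and lay between 178 and 187 CPM in all HLF libraries. ELOVL2, for very long polyunsaturated chains, fell by -0.25 ± 0.06 in both HLF cultures (adjusted p = 0.00209 and 0.00174). Those calls ended without HLF Inject-Embed replicate 1 (0.0992) and without HLF Mix-Embed replicate 2 (0.0835). ELOVL1, for saturated very long chains, was higher in Inject-Embed than in Mix-Embed in Huh7 (0.43 ± 0.07, adjusted p = 4.82e-06). ELOVL6 made up 19.5% of the summed FPKM of these elongases in Huh7 2D, 12.5% in Inject-Embed and 16.4% in Mix-Embed, and 3.53% to 4.55% in HLF.

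**Figure D4:**
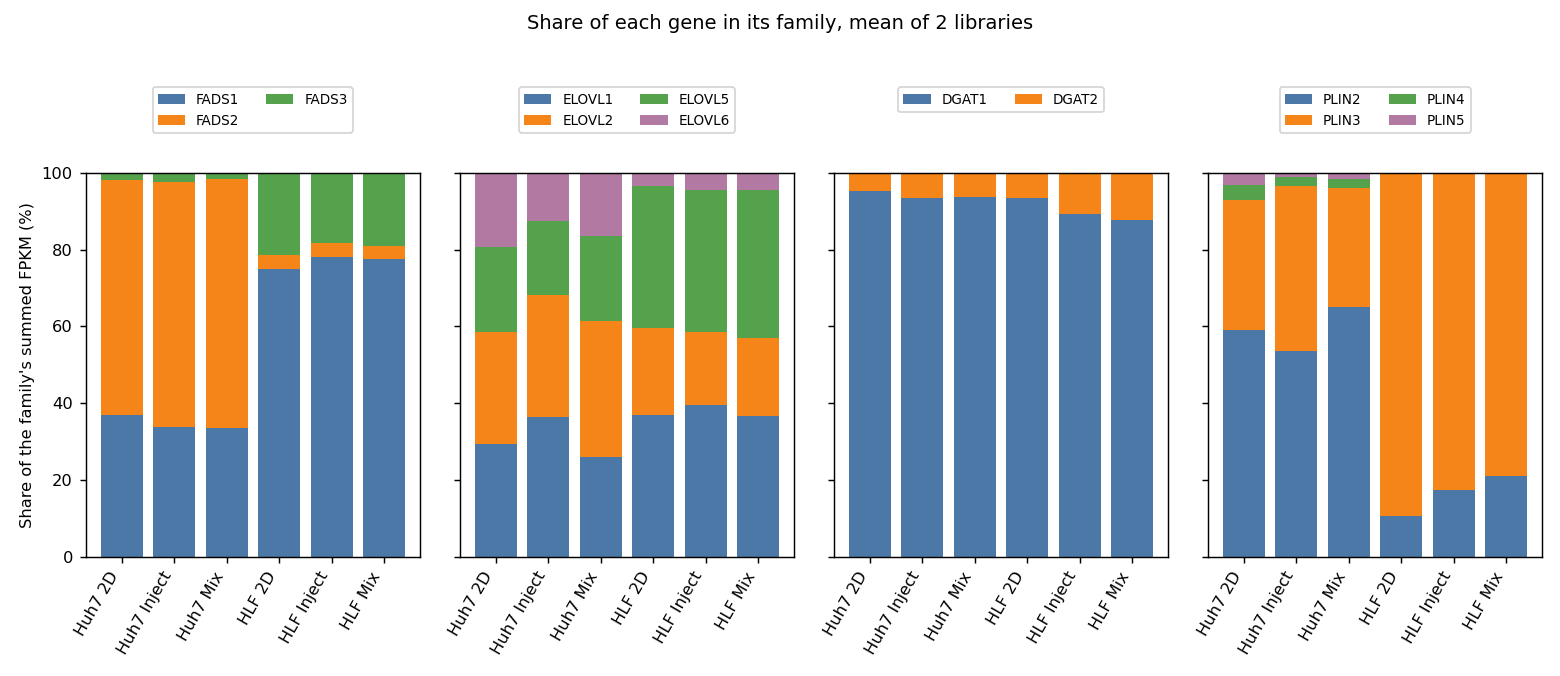
Share of each gene in the summed FPKM of its family (y axis, percent, mean of 2 libraries) in the 6 groups (x axis), for the FADS, ELOVL, DGAT and perilipin genes. FADS2 and PLIN2 hold the larger share in Huh7, and FADS1 and PLIN3 in HLF.

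The acyl-CoA synthetases ACSL3, which works at nascent droplets, and ACSL4, which prefers arachidonate, both fell in Huh7 Inject-Embed. ACSL4 measured 793 and 746 CPM in Huh7 2D, 501 and 535 in Inject-Embed, and 646 and 629 in Mix-Embed. In HLF it measured 181 and 193 CPM in 2D, 191 and 186 in Inject-Embed, and 159 and 152 in Mix-Embed. The HLF 2D and Inject-Embed libraries overlapped, and Mix-Embed was lower in both lines. ACSL4 changed by -0.57 ± 0.05 in Huh7 Inject-Embed (adjusted p = 1.12e-13) and by -0.27 ± 0.05 in Mix-Embed of both lines (adjusted p = 1.16e-05 and 4.13e-05). ACSL3 changed by -0.41 ± 0.05 in Huh7 Inject-Embed (adjusted p = 3.12e-09) and by -0.19 ± 0.05 in HLF Mix-Embed (adjusted p = 0.00205).

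Of the 5 triglyceride assembly genes, 2 rose and 1 fell in Huh7 Inject-Embed, where 13.2% and 16.7% of all genes did. In Huh7 Mix-Embed 3 rose and 1 fell, against 11.2% and 10.6%. In HLF 1 rose in Inject-Embed (9.09% of all genes) and 2 in Mix-Embed (14.4%), and none fell (8.86% and 14.6%). With 5 genes, the counts of either line are too few to read as a result about these genes as a group. DGAT2, an acyltransferase that completes triglyceride, measured 24.3 and 28.8 CPM in Huh7 2D, 58.2 and 53.5 in Inject-Embed, and 51.1 and 46.2 in Mix-Embed. The HLF values were 4.34 and 3.28 CPM in 2D, 6.68 and 6.84 in Inject-Embed, and 5.53 and 8.14 in Mix-Embed. Each Matrigel library was above each 2D library of its line. The changes were 1.07 ± 0.11 and 0.87 ± 0.11 in Huh7 (adjusted p = 3.57e-10 and 9.68e-08). In HLF they were 0.83 ± 0.2 and 0.86 ± 0.19 (adjusted p = 0.00155 and 0.000541). The HLF calls ended without HLF 2D replicate 2 (0.64, adjusted p = 0.0719) and without HLF Mix-Embed replicate 2 (0.55, adjusted p = 0.102). The line differences were 0.25 ± 0.23 and 0.02 ± 0.25 (adjusted p = 0.508 and 1), with SEs too wide to show that the lines respond alike.

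DGAT1, the other enzyme of that step, rose in Huh7. It measured 262 and 293 CPM in 2D, 429 and 406 in Inject-Embed, and 375 and 387 in Mix-Embed. HLF libraries held 28.4 and 28.7 CPM in 2D, 27.8 and 30.5 in Inject-Embed, and 23.4 and 27.0 in Mix-Embed. All Huh7 Matrigel libraries were above 2D, and no HLF change passed the test. DGAT1 exons overlap HSF1 over 3.32% of their length, and what this does to its counts was not tested. The Huh7 changes were 0.59 ± 0.05 and 0.46 ± 0.05 (adjusted p = 5.49e-12 and 8.81e-09), and the lines differed by 0.56 ± 0.1 and 0.63 ± 0.1 (adjusted p = 1.97e-05 and 4.04e-06). In 2D, DGAT1 was 9.73-fold and DGAT2 6.96-fold higher in Huh7 than in HLF (adjusted p = 7.3e-37 and 3.99e-20). DGAT1 held 95.2% of the FPKM of the pair in Huh7 2D and 93.5% in HLF 2D. DGAT2 went from 4.76% to 6.53% and 6.26% in Huh7, and from 6.52% to 10.8% and 12.3% in HLF.

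The upstream assembly genes differed between the lines more than between cultures. GPAM, the mitochondrial acyltransferase that starts glycerolipid synthesis, was 4.5-fold higher in Huh7 in 2D (adjusted p = 1.36e-30) and was called in no comparison within a line. AGPAT2, which adds the next acyl chain, measured 110 and 124 CPM in Huh7 2D, 119 and 101 in Inject-Embed, and 171 and 174 in Mix-Embed. It rose in Huh7 Mix-Embed alone of the 4 Matrigel comparisons (0.57 ± 0.07, adjusted p = 8.76e-09). LPIN2, a phosphatidate phosphatase, measured 179 and 170 CPM in Huh7 2D, 121 and 124 in Inject-Embed, and 137 and 133 in Mix-Embed. Levels in HLF were 82.7 and 77.9 CPM in 2D, 87.4 and 86.4 in Inject-Embed, and 103 and 104 in Mix-Embed. LPIN2 fell in Huh7 (-0.51 ± 0.06 and -0.37 ± 0.06, adjusted p = 1.22e-09 and 2.06e-06) and rose in HLF Mix-Embed (0.37 ± 0.06, adjusted p = 3.12e-06).

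The mix of perilipin transcripts differed between the lines. PLIN2, the main coat protein of liver droplets, measured 223 and 220 CPM in Huh7 2D, 136 and 131 in Inject-Embed, and 246 and 257 in Mix-Embed. In HLF the gene stood at 42.6 and 44.3 CPM in 2D, 65.4 and 66.1 in Inject-Embed, and 74.1 and 67.1 in Mix-Embed. Huh7 Inject-Embed stood below its 2D libraries and both HLF Matrigel groups stood above theirs. The changes in Inject-Embed were -0.73 ± 0.06 in Huh7 (adjusted p = 2.76e-14) and 0.6 ± 0.07 in HLF (adjusted p = 1.85e-09), a line difference of -1.33 ± 0.09 (adjusted p = 2.88e-16). In Mix-Embed they were 0.19 ± 0.05 in Huh7 (adjusted p = 0.00876; 0.158 without Huh7 Mix-Embed replicate 2) and 0.7 ± 0.07 in HLF (adjusted p = 1.1e-11). PLIN3, a ubiquitous coat protein that also occurs free in the cytosol, was 2.86-fold higher in HLF in 2D (adjusted p = 4.81e-24) and fell in HLF Mix-Embed (-0.45 ± 0.06, adjusted p = 1.93e-07).

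PLIN2 held 59.1% ± 2.6 (SD, n = 2) of the perilipin FPKM in Huh7 2D, 53.6% ± 1.2 in Inject-Embed and 65.1% ± 1.2 in Mix-Embed. In HLF it held 10.7% ± 0.65, 17.3% ± 0.25 and 21.0% ± 1.9. PLIN3 took most of the remainder, 33.7% in Huh7 2D and 88.9% in HLF 2D. FITM2, which moves triglyceride into budding droplets, was 2.53-fold higher in HLF in 2D (adjusted p = 3.18e-16) and was called in no comparison within a line.

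PLIN4 and PLIN5 are neighbours on chromosome 19, on the minus strand with 4065 bases between them. PLIN4 coats small droplets and PLIN5 ties droplets to mitochondria in oxidative tissue. PLIN4 measured 19.9 and 18.5 CPM in Huh7 2D, 7.49 and 7.74 in Inject-Embed, and 8.98 and 12.8 in Mix-Embed. PLIN5 measured 12.2 and 10.9, then 2.72 and 2.13, then 5.5 and 7.16 CPM in the same groups. Both were highest in 2D without overlap, and the Mix-Embed replicates were spread widely. In Inject-Embed PLIN4 changed by -1.34 ± 0.18 and PLIN5 by -2.24 ± 0.27 (adjusted p = 5.18e-08 and 6.73e-09), the latter 4.73-fold lower and the largest change of the set in Huh7. In Mix-Embed they changed by -0.83 ± 0.17 and -0.87 ± 0.23 (adjusted p = 0.000173 and 0.00433). The PLIN5 call ended without Huh7 2D replicate 1 or Huh7 Mix-Embed replicate 1 (adjusted p = 0.0763 and 0.123). In HLF, PLIN4 lay between 0.973 and 2.46 CPM, with -0.99 ± 0.32 in Inject-Embed (adjusted p = 0.0225), a call that ended without HLF 2D replicate 2 (adjusted p = 0.161) or HLF Inject-Embed replicate 1 (0.211). PLIN5 had 1 count in HLF 2D and 0 in the Matrigel cultures, so Huh7 was at least 25.5-fold higher in Inject-Embed and at least 65.9-fold higher in Mix-Embed, against 3 counts over the HLF group.

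The promoters of SCD, PLIN2, PLIN4 and PLIN5 are shown. They were picked, after values were seen, from the members called the same way in both Matrigel cultures of a line. Other members that met this rule are not shown. SCD is the most abundant member, and PLIN5 and PLIN4 had the lowest fold changes in Huh7 Inject-Embed. PLIN2 went in opposite directions in the lines in Inject-Embed. Each line gives the 250 bases before the start listed by RefSeq on GRCh38.p14, 5′ to 3′ on the gene's strand, with motif letters in capitals. The motifs searched on both strands were CACGTG (an E-box), CCAAT (the NF-Y box, which reads ATTGG on the other strand) and TCACNCCAC (the core of a sterol regulatory element). The windows lie at chr10:100346983-100347232 (plus), chr9:19127493-19127742 (minus), chr19:4518487-4518736 (minus) and chr19:4535225-4535474 (minus).
SCD: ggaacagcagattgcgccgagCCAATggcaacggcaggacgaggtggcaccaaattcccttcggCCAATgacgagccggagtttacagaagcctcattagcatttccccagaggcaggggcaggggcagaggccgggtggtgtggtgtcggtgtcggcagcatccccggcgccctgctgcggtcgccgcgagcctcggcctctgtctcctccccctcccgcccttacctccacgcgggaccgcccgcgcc
PLIN2: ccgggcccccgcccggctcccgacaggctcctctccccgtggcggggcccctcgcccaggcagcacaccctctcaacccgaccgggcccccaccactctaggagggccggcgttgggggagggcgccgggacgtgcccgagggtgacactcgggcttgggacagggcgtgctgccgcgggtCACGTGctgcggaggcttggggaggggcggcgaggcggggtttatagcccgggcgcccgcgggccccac
PLIN4: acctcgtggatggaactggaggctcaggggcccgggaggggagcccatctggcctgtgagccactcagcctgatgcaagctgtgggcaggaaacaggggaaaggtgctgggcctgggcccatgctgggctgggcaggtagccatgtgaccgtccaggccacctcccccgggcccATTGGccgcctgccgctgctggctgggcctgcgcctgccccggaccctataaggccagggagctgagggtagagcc
PLIN5: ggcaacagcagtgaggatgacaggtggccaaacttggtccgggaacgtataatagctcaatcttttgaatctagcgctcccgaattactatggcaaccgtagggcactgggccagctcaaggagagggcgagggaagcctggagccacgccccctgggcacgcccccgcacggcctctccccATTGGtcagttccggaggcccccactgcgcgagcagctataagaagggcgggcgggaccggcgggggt
SCD holds CCAAT boxes beginning 229 and 186 bases before the start, and PLIN2 an E-box 69 bases before it. PLIN4 and PLIN5 each hold a reversed CCAAT box, 76 and 68 bases before their starts. Windows of 300 bases that reach 50 bases past the start were found for 30 of the 34 members, 40 windows in all. CCAAT occurred in 20 of the 40 (50%) and in 34.6% of all 35116 windows, CACGTG in 3 (7.5%) and 7.26%, and TCACNCCAC in 2 (5%) and 1.13%. By gene, CCAAT occurred in 17 of the 30 members, as some members have several windows, which can overlap. The windows with TCACNCCAC belong to CIDEC, which had too few reads to be tested, and PNPLA2. No excess of a motif was tested. No window was listed for FASN, DGAT1, DGAT2 or PNPLA3.

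Among the lipolysis genes, PNPLA3 is a lipid droplet protein whose gene responds to SREBP-1c, and PNPLA2 is the adipose triglyceride lipase. PNPLA3 measured 20.7 and 25.8 CPM in Huh7 2D, 10.2 and 9.18 in Inject-Embed, and 21.5 and 19.2 in Mix-Embed. For HLF the values were 6.26 and 6.49 CPM in 2D, 5.32 and 4.95 in Inject-Embed, and 4.03 and 3.62 in Mix-Embed. Inject-Embed was the low group in Huh7 and Mix-Embed in HLF. PNPLA3 exons overlap SAMM50 over 4.64% of their length, and the effect of this on its counts was not tested. The changes were -1.26 ± 0.15 in Huh7 Inject-Embed (adjusted p = 4.76e-09) and -0.74 ± 0.19 in HLF Mix-Embed (adjusted p = 0.00276; 0.0532 without HLF Mix-Embed replicate 2). PNPLA2 measured 29.7 and 36.7 CPM in Huh7 2D, 24.1 and 24.3 in Inject-Embed, and 36.1 and 38.7 in Mix-Embed. In HLF it measured 88.0 and 94.8 CPM in 2D, 66.4 and 70.7 in Inject-Embed, and 75.7 and 78.3 in Mix-Embed. PNPLA2 fell in Inject-Embed in both lines, by -0.46 ± 0.1 in Huh7 and -0.41 ± 0.07 in HLF (adjusted p = 0.000249 and 4.17e-05). In HLF Mix-Embed it changed by -0.25 ± 0.07 (adjusted p = 0.00892), a call that ended without HLF 2D replicate 2 (0.189) or HLF Mix-Embed replicate 1 (0.11), and in Huh7 Mix-Embed by 0.17 ± 0.09 (adjusted p = 0.197). LIPE, hormone-sensitive lipase, was at 0.905 to 1.9 CPM in all libraries, and no change in it was detectable at this depth.

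The difference between the lines was tested in the same model, as the Huh7 change minus the HLF change. For Inject-Embed against 2D it was below 0 in 14 of 31 members and above 0 in 3, where 13.1% and 11.7% of all genes were called. The lowest values were ACSS2 (-1.38 ± 0.09, adjusted p = 6.93e-17), FADS1 (-1.33 ± 0.06, 6.88e-21), PLIN2 (-1.33 ± 0.09, 2.88e-16), ELOVL6 (-1.18 ± 0.1, 1.04e-12) and FADS2 (-1.05 ± 0.1, 2.75e-11). Of these, ACSS2, PLIN2 and ELOVL6 went in opposite directions, each past the threshold in both lines. The 3 above 0 were DGAT1, SREBF1 and FASN. For Mix-Embed against 2D, 6 were below 0 and 8 above, against 10.2% and 10.2% of all genes, and under library totals 9 and 7. For Inject-Embed against Mix-Embed, 15 were below 0 and 0 above, against 5.95% and 4.62%, and under library totals 15 and 2. The lowest there was PNPLA3 (-1.5 ± 0.25, adjusted p = 2.95e-05).

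**Figure D5:**
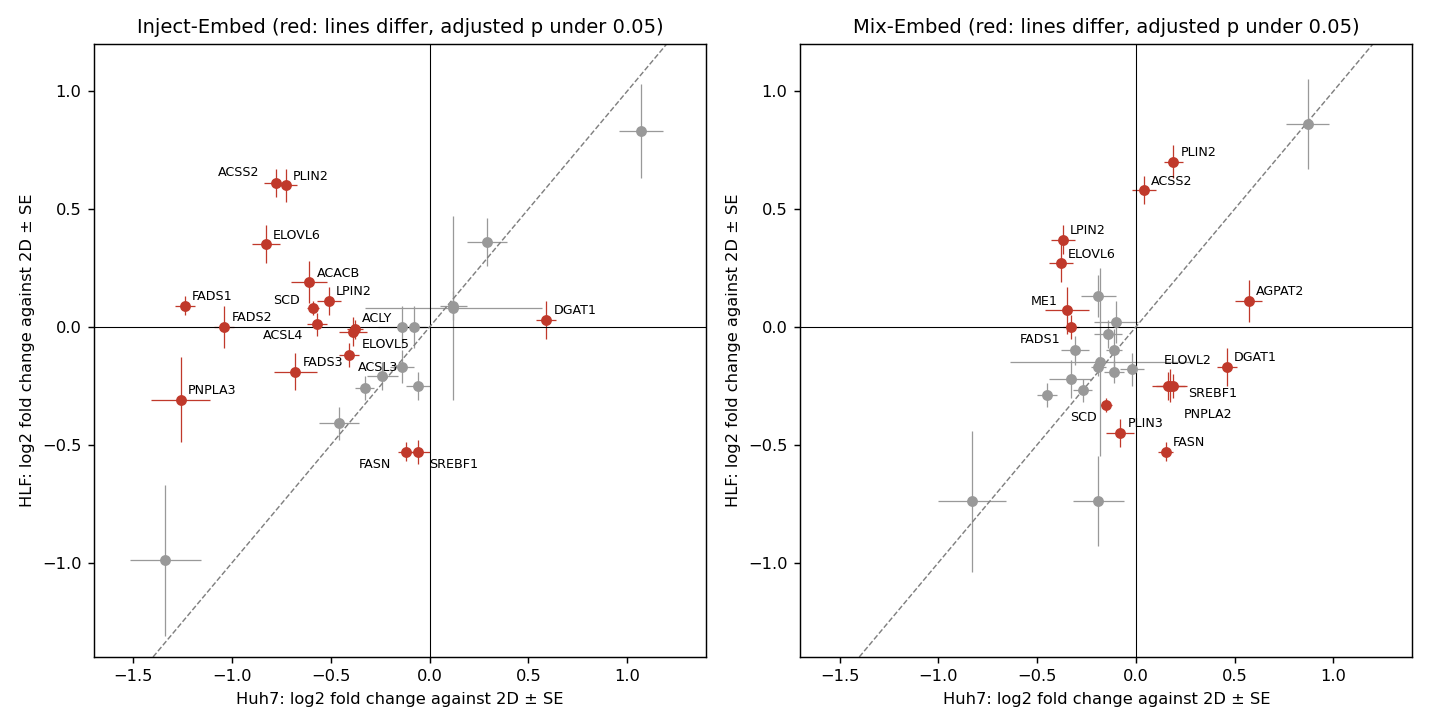
Log2 fold change ± SE against 2D in Huh7 (x axis) and HLF (y axis) for 29 members, in Inject-Embed (left) and Mix-Embed (right), without MLXIPL and PLIN5, which have 3 counts or fewer in HLF. Red members differ between the lines at an adjusted p under 0.05; in Inject-Embed ACSS2, PLIN2 and ELOVL6 lie in the upper left, and the unlabelled grey point at the upper right of both panels is DGAT2, near the dashed line of equal change.

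A further list held 55 genes of the same pathways, of which 51 were tested. In Huh7 Inject-Embed against 2D, 10 rose and 8 fell, where 13.2% and 16.7% of all genes did. In Huh7 Mix-Embed 12 rose and 7 fell, against 11.2% and 10.6%. In HLF Inject-Embed 12 rose and 2 fell, against 9.09% and 8.86%, and in HLF Mix-Embed 10 rose and 5 fell, against 14.4% and 14.6%. The median log2 fold change of the list was 0.02 and 0.03 in Huh7 and 0.02 in both HLF cultures. INSIG1, an anchor that helps hold SREBP in the endoplasmic reticulum, fell in both Huh7 cultures (-0.88 ± 0.06 and -0.15 ± 0.05, adjusted p = 5.24e-17 and 0.0395). It rose in both HLF cultures (0.46 ± 0.06 and 0.17 ± 0.06, adjusted p = 4.05e-08 and 0.0243). HILPDA, a hypoxia-induced inhibitor of PNPLA2, changed by -0.69 ± 0.12 in Huh7 Inject-Embed and 0.6 ± 0.11 in Huh7 Mix-Embed (adjusted p = 1.03e-05 and 3.57e-05). ACSL5, a further acyl-CoA synthetase, rose in all 4 Matrigel comparisons, by 0.59 ± 0.12 and 0.84 ± 0.12 in Huh7 and by 1.23 ± 0.19 and 1.77 ± 0.18 in HLF (adjusted p between 1.17e-10 and 0.000115). These genes were picked from the list after their values were seen.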

How the data were processed

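RNA-seq of 12 libraries was analysed from 2 deposited tables. Reads were handled with FastQC, Trimmomatic, STAR 2.7.9a and featureCounts on GRCh38, per the submitters' processing notes. What release of the annotation and which strand option were used is not given in the sources used here. As deposited by the authors, the tables hold whole-number counts per gene and FPKM for the same genes. The deposited FPKM equalled count over gene length and library total within a relative 1e-08 for the 167453 values with at least 20 counts. A short column name was read as Mix-Embed, since the others name 2D and Inject-Embed. The main test was edgeR 4.0.16 (R 4.3.3) with TMM, filterByExpr with a minimum count of 10, a mean per group, quasi-likelihood tests and Benjamini-Hochberg adjustment over 19342 genes at 0.05. The common dispersion was 0.00211 (4.6% variation between replicates), with 6 residual degrees of freedom. Alternatives used RLE scaling, library totals, no filter, DESeq2 1.42.0, limma 3.58.1 on log2(FPKM + 1) and log2(FPKM + 0.1), a replicate block, fewer groups, and each library left out. The test was also run on counts simulated from the means, library sizes and dispersions of the main fit, with results not reported here. A ratio against 0 counts uses 3 counts over the group. Exon overlaps come from GENCODE 44. The members, the further list and the tests were chosen with earlier results of these data known. Full statistics go to up to 6 called members per comparison with the largest change, up to 5 per line difference, and SREBF1, MLXIPL, FASN, SCD, ACACA, DGAT2, PLIN2 and PNPLA2; other members are named with fewer values.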

Additional observations from a re-analysis of the deposited data

Results flagged for a closer look

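The following changes differed between Huh7 and HLF by a test of the difference itself, given as the Huh7 log2 fold change minus that of HLF. In Inject-Embed against 2D these were ACSS2 (-1.38), FADS1 (-1.33), FADS2 (-1.05), ELOVL6 (-1.18) and PLIN2 (-1.33). In Mix-Embed against 2D they were ACSS2 (-0.55), FASN (0.68), ELOVL6 (-0.65), LPIN2 (-0.73) and DGAT1 (0.63). Between Inject-Embed and Mix-Embed they were ACSS2 (-0.84), SCD (-0.85), FADS1 (-1.0), FADS2 (-1.04) and PNPLA3 (-1.5). Groups of 2 libraries are too small to look for a library far from the others.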

How the results depend on the processing

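Over 6098 tests of single members under an alternative, 5836 kept direction and side of the threshold, 189 lost the call, 71 gained one and 2 reversed. The reversals, under limma on log2(FPKM + 1), were the line differences of PLIN5 in Mix-Embed against 2D (-0.54, adjusted p = 0.0103) and of MLXIPL between the Matrigel cultures (-0.44, adjusted p = 0.0342), both with 3 counts or fewer in HLF. Of the counts of members called, HLF Inject-Embed against Mix-Embed moved by over 1.5 times, from 8 to 5 and 4 under limma with 1 and 0.1 added to the FPKM. Leaving out each library gave 3 to 8 there, 21 to 23, 15 to 21 and 19 to 24 for the Huh7 comparisons (Inject-Embed, Mix-Embed, and one against the other), 8 to 12 and 13 to 17 for HLF Inject-Embed and Mix-Embed against 2D, and 27 to 29 for the lines in 2D. For the line differences it gave 17 in each case, 11 to 16, and 12 to 16. A group left with 1 library was assumed to vary like the others. With a replicate block 309 of 310 member tests kept their call and 1 gained one. Same-numbered libraries did not deviate together (correlations -0.024 to 0.022). That found no pairing by number but cannot exclude one, since the labels do not say what a number marks. Depth limits LIPE, PLIN4 and DGAT2 in HLF and all within-HLF values of MLXIPL and PLIN5.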
